A study of Caenorhabditis elegans with 6 samples.

Results

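Acetylation of histone H3 at lysine 18 (H3K18ac) and lysine 27 (H3K27ac) was mapped by chromatin immunoprecipitation and sequencing in whole Caenorhabditis elegans, and the places described here are those where both marks were lower in worms fed cco-1 RNAi than in worms fed the empty vector. cco-1 is a nuclear gene for a subunit of cytochrome c oxidase, the last enzyme of the respiratory chain, and its knockdown stresses mitochondria. A place was a pair of overlapping peaks, 1 of each mark, and it was chosen by the data: the level in cco-1 RNAi worms divided by that in empty vector worms was at most 1/1.5 for H3K18ac and at most 1/1.5 for H3K27ac. By this rule 895 of 15026 overlapping pairs, or 5.96%, were selected, and "fell" is used below for a pair past this limit in both marks. The ratios of these pairs are therefore a description and support nothing by themselves.

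The groups were cco-1 RNAi and empty vector for each mark, with 1 library per group, so no test between conditions could be made and nothing here says how far 1 worm culture differs from the next. The cco-1 RNAi worms were fed a mixture of bacteria in which 50% carried the cco-1 clone, and the empty vector worms were fed bacteria of the same strain, E. coli HT115, with the vector alone. All worms were N2, labelled wild type, grown at 20 °C on the RNAi bacteria from the egg and collected at the last larval or young adult stage. The series design adds a green fluorescent reporter of hsp-6 that the sample labels do not mention. Counts in nuclear peaks came to 8948860 in the cco-1 RNAi and 8293828 in the empty vector library of H3K18ac, and to 11593321 in the cco-1 RNAi and 11556404 in the empty vector library of H3K27ac. Input libraries were not analysed here. Levels are given as counts scaled to 1000000 counts in nuclear peaks (CPM), and intervals are exact 95% intervals that cover counting error only. Whole worms were used, so fewer cells of a type and less acetylation per cell cannot be told apart.

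Acetylated lysines on the tail of H3 mark active promoters and enhancers, and the CREB-binding protein and its relatives acetylate both lysines. Such marks are written and erased as genes are turned on and off, and overlap of both at a place is common at active regulatory elements. In C. elegans the arms of the chromosomes carry many recently expanded gene families, among them F-box genes, lectins and chemoreceptors, while the centres hold more of the conserved genes.

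For H3K18ac 2264 of 17207 nuclear peaks, or 13.2%, had a ratio of at most 1/1.5, and for H3K27ac 4098 of 17763 nuclear peaks, or 23.1%, did. Of the 1629 overlapping pairs that were low in H3K18ac, 54.9% were low in both marks, and of the 2764 that were low in H3K27ac, 32.4% were. The marks moved in opposite directions past 1.5-fold in few pairs: H3K18ac was low and H3K27ac high in 8, and H3K27ac was low and H3K18ac high in 13. The other shared direction, higher in both marks, held 439 of the 15026 pairs, so a small family can have none without differing from all pairs.

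**Figure D1:**
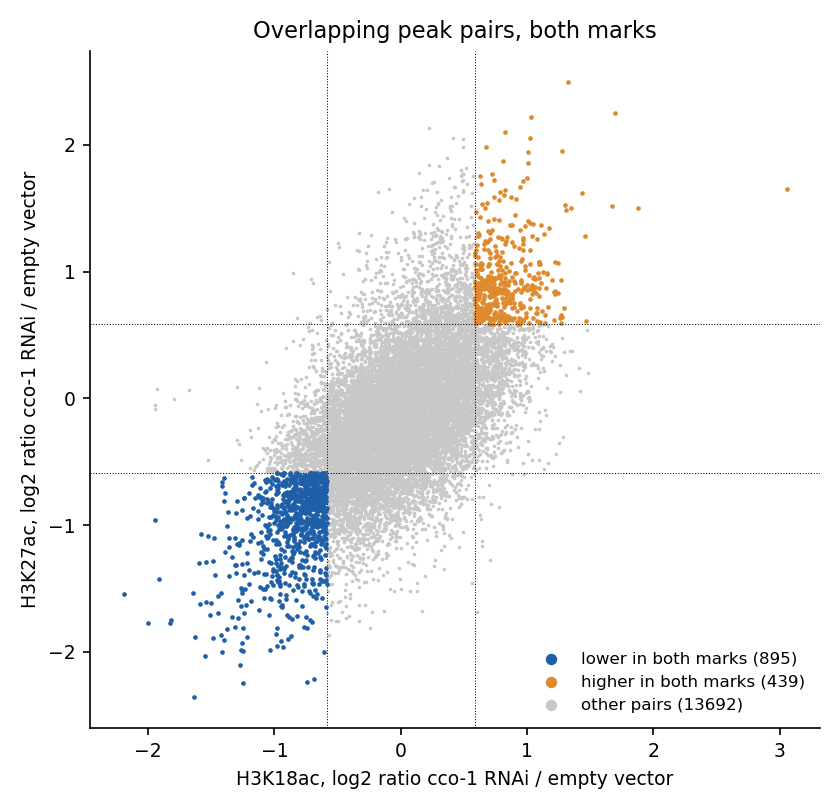
Log2 of the level in cco-1 RNAi worms divided by that in empty vector worms, for H3K18ac (horizontal) and H3K27ac (vertical), 1 point per overlapping pair of peaks, with dotted lines at 1.5-fold. The 895 pairs lower in both marks (blue) fill the lower left corner by construction, and the 439 pairs higher in both (orange) the upper right.

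The 895 pairs comprised 895 H3K18ac peaks and 862 H3K27ac peaks, since 33 H3K27ac peaks each overlapped more than 1 of the H3K18ac peaks. Their nearest genes numbered 821, and the nearest gene was the same for both marks in 859 pairs. The median ratio was 0.578 for H3K18ac, with a range of 0.218 to 0.667, and 0.536 for H3K27ac, with a range of 0.195 to 0.667. H3K27ac had the lower log2 ratio in 604 of the 895 pairs. Over all overlapping pairs the median log2 ratio was -0.00 for H3K18ac and -0.14 for H3K27ac, so the H3K27ac ratios as a whole were shifted downward. The direction of the balance rests on the scaling: 895 pairs were lower and 439 higher in both marks, but 587 were lower and 750 higher when each mark was scaled to a median ratio of 1 over its own nuclear peaks, and 644 were lower and 615 higher without scaling. Median scaling raised the log2 ratios by 0.03 for H3K18ac and by 0.19 for H3K27ac.

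Many of the selected ratios lay near the limit. A ratio of at most 1/2 in both marks was reached by 110 pairs and a ratio of at most 1/3 in both by 6. Just inside the limit stood M04C7.3 with ratios of 0.667 for H3K18ac and 0.637 for H3K27ac, and 21ur-13288 with 0.527 for H3K18ac and 0.667 for H3K27ac. Just outside stood K09E4.4 with 0.667 for H3K18ac and 0.579 for H3K27ac, and emb-9, a basement membrane collagen, with 0.667 for H3K18ac and 0.475 for H3K27ac. The larger ratio of the pair lay between 0.6 and the limit in 441 selected pairs, and between the limit and 0.75 in 961 pairs that were not selected. For 236 of the 895 pairs the whole counting interval of both ratios lay at or below 1/1.5, and 375 pairs passed the limit once the 5th percentile of levels was added to each level.

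The pairs with the lowest mean log2 ratio were, apart from rrn-2.1 described below, weak to moderate places. The lowest was at msp-78, a major sperm protein gene on chromosome IV (9770343 to 9770722, build WBcel235), where H3K18ac had 44 counts in cco-1 RNAi worms against 127 in empty vector worms, and H3K27ac had 87 counts in cco-1 RNAi worms against 444 in empty vector worms. The ratios there were 0.321 (0.223 to 0.456) for H3K18ac and 0.195 (0.153 to 0.246) for H3K27ac. At this locus the H3K27ac ratio was the lowest of the 895. Of the 47 pairs nearest to sperm genes, msp-78 was the 1 that fell. That share, 2.13% (0.0539 to 11.3), has an interval that includes the 5.96% of all pairs. How reads that match several genes were counted is not given in the sources used here. The next pairs were Y51A2D.24, a non-coding RNA gene on chromosome V with ratios of 0.249 and 0.292 for H3K18ac and H3K27ac, and fbxc-51, an F-box gene on chromosome II with the lowest H3K18ac ratio of the 895, 0.218 (0.145 to 0.321). At fbxc-51 the H3K18ac peak had 33 counts in cco-1 RNAi worms against 140 in empty vector worms.

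Other places of this depth of change were C40A11.6, F44F1.5, Y46G5A.7, C46C11.4, fbxc-39, R07C3.3, T26C12.8 and fbxb-104. The protein-coding gene C40A11.6 on chromosome II (2145453 to 2145886) had 205 H3K27ac counts in cco-1 RNAi worms against 835 in empty vector worms, a ratio of 0.245 (0.209 to 0.285). F44F1.5, a pseudogene near the right end of chromosome I, had 106 H3K27ac counts in cco-1 RNAi worms against 361 in empty vector worms. The smallest counts among the 895 pairs were 23 in cco-1 RNAi and 52 in empty vector worms for H3K18ac, and 34 in cco-1 RNAi and 77 in empty vector worms for H3K27ac. Every selected pair had counting intervals below 1 in both marks.

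The strongest of the 895 places was the ribosomal RNA gene rrn-2.1 at the right end of chromosome I (15064121 to 15067536), part of the tandem repeats that encode the large ribosomal RNAs. H3K18ac had 28302 counts in cco-1 RNAi worms against 92551 in empty vector worms, and H3K27ac had 30631 counts in cco-1 RNAi worms against 102661 in empty vector worms. The ratios were 0.283 (0.280 to 0.287) for H3K18ac and 0.297 (0.294 to 0.301) for H3K27ac, and the peak covered the start of the gene in both marks. Reads from the many near-identical repeat copies fall on the few copies in the assembly, and how such reads were counted is not given in the sources used here, so this value cannot be assigned to 1 copy.

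Next in strength came ztf-29, a zinc finger gene, and phy-4, a prolyl hydroxylase subunit of the kind that modifies collagens. At ztf-29 on chromosome III the H3K18ac level was 380 CPM in cco-1 RNAi worms against 596 CPM in empty vector worms, and the H3K27ac level was 363 CPM in cco-1 RNAi worms against 638 CPM in empty vector worms. At phy-4 on chromosome V H3K18ac had 338 CPM in cco-1 RNAi worms against 598 CPM in empty vector worms, and H3K27ac had 241 CPM in cco-1 RNAi worms against 367 CPM in empty vector worms. The pseudogene Y5F2A.3 on chromosome IV differed more in H3K18ac than in H3K27ac, with ratios of 0.380 (0.363 to 0.397) and 0.569 (0.537 to 0.603) for the marks in that order. The other strong places were T28F4.7, F44E5.3, F49B2.3, ZK262.9, F54D5.21, inx-3, mir-266 and 21ur-11729, with ratios of 0.351 to 0.655 over both marks. Of these, inx-3 encodes a gap junction innexin, and its H3K27ac peak had 1378 counts in cco-1 RNAi worms against 2749 in empty vector worms.

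Such strong places were the exception, and the median level of the pairs that fell was below that of the other pairs in both conditions. Their median H3K18ac level was 19.7 CPM in cco-1 RNAi and 34.6 CPM in empty vector worms, against 44.8 CPM in cco-1 RNAi and 44.5 CPM in empty vector worms for the other 14131 pairs. Their median H3K27ac level was 17.2 CPM in cco-1 RNAi and 33.4 CPM in empty vector worms, against 35.9 CPM in cco-1 RNAi and 38.7 CPM in empty vector worms for the other pairs. The empty vector levels alone thus also lay below those of the other pairs, by a smaller margin than the cco-1 RNAi levels that the rule used. By empty vector level of H3K18ac, 4.19% to 8.32% of the pairs fell in each of the lower 9 deciles and 2.46% in the strongest. By empty vector level of H3K27ac the shares ranged from 3.99% in the strongest decile to 7.52% in the 5th, with 5.32% in the weakest. The levels of both conditions entered the rule, so these shares are a description and not a separate result.

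Pairs that fell had narrower H3K18ac peaks than other pairs, and slightly wider H3K27ac peaks. The median width was 404 bp for H3K18ac peaks that fell against 560 bp for the other pairs, and 548 bp for H3K27ac peaks that fell against 526 bp for the other pairs. The H3K27ac peak was wider than the H3K18ac peak in 87.7% of the pairs that fell and in 46.8% of all pairs. Of the decile of pairs with the narrowest H3K18ac peaks 17.8% fell, and of the decile with the widest 0.932%, whereas the deciles of H3K27ac width ranged from 4.66% to 6.59%. Both differences were also seen when the pairs were cut into 3 equal classes of empty vector H3K18ac level. The H3K18ac medians of pairs that fell and of other pairs were 296 and 406 bp in the weakest class, 414 and 546.5 bp in the middle one, and 716 and 867 bp in the strongest. The H3K27ac medians of pairs that fell and of other pairs were 422 and 408 bp in the weakest class, 528 and 487 bp in the middle one, and 904 and 742 bp in the strongest. Peak borders were set by the authors' peak calling, whose treatment of the conditions is not given in the sources used here, and its part in these widths was not tested.

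**Figure D2:**
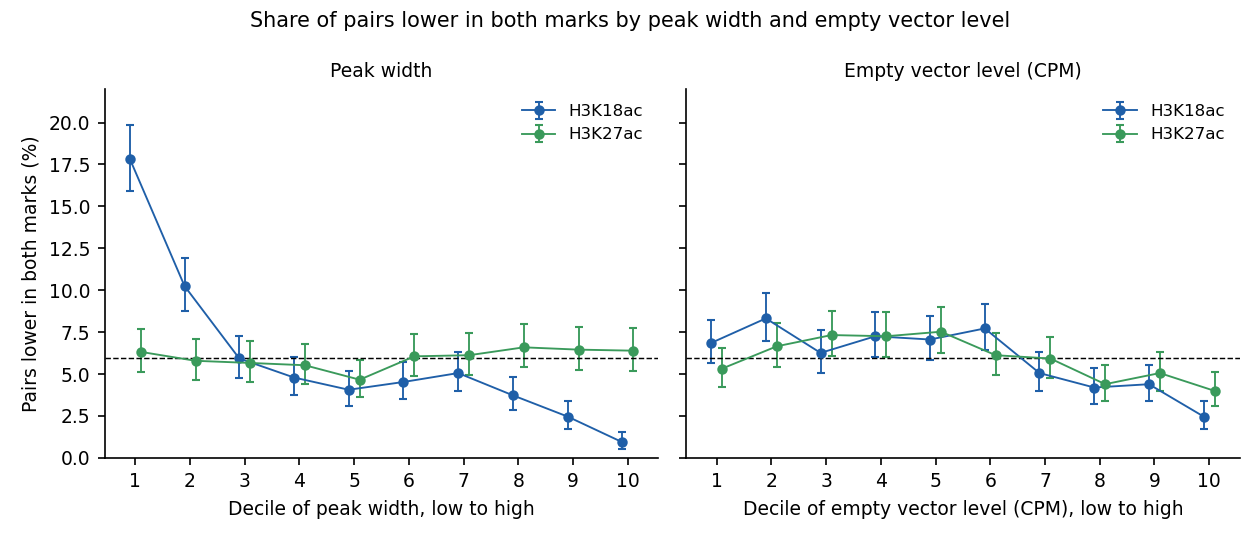
Percentage of overlapping pairs that were lower in both marks, by deciles of peak width (left) and of the level in the empty vector library (right), for H3K18ac (blue) and H3K27ac (green), with exact 95% intervals and a dashed line at 5.96%. The share drops with H3K18ac width, 17.8% to 0.932%, is nearly level with H3K27ac width, and by empty vector level stays within 2.46% and 8.32% for H3K18ac and within 3.99% and 7.52% for H3K27ac.

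The pairs that fell lay within 1 kb of gene starts in about the same share as other pairs, and the shares of peaks over the start itself were lower, most clearly for H3K18ac. A peak of either mark lay within 1 kb of the nearest gene's start in 66.9% (63.7 to 70.0) of the pairs that fell and in 65.0% of all pairs. The H3K18ac peak lay over the start itself in 19.7% (17.1 to 22.4) of the pairs that fell, in 34.2% of the pairs higher in both marks and in 32.7% of all pairs. The H3K27ac peak lay over the start in 27.2% (24.3 to 30.2) of the pairs that fell and in 33.1% of all pairs. The H3K18ac peaks that fell were also narrow, and the part of width in this share was not tested. H3K18ac peaks inside gene bodies made up 12.3% of the pairs that fell and 13.2% of all pairs, and those more than 5 kb from a start 4.36% of the pairs that fell and 5.13% of all pairs.

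Pseudogenes made up a larger share of the nearest genes than among all pairs. Of the 887 pairs that fell and whose nearest gene had a RefSeq biotype, 115, or 13% (10.8 to 15.4), lay nearest to a pseudogene, against 0.957% of the pairs higher in both marks and 4.60% of all pairs. Read the other way, 17% of the 676 pairs nearest to pseudogenes fell. Protein-coding genes were nearest in 63.1% (59.9 to 66.3) of the pairs that fell, in 74.6% of the pairs higher in both marks and in 69.0% of all pairs. Non-coding RNA genes were nearest in 16.7% of the pairs that fell and in 18% of all pairs, and piRNA loci, which encode short germline RNAs, in 3.27% of the pairs that fell and in 3.92% of all pairs.

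The pairs that fell were unevenly spread along the chromosomes. Their share was 9.53% on chromosome II, 6.41% on I, 6.26% on V, 5.56% on the covered part of X, 4.28% on IV and 3.26% on III. Each autosome was cut into 3 stretches of equal length, a left arm, a middle and a right arm. In the left arm of chromosome II 172 of 928 pairs fell, or 18.5% (16.1 to 21.2), in the right arm of I 127 of 1006, or 12.6% (10.6 to 14.8), and in the right arm of V 121 of 1088, or 11.1% (9.31 to 13.1). The opposite arms had lower shares, 4.63% in the right arm of II, 2.70% in the left arm of I and 3.97% in the left arm of V. On chromosome III the 3 stretches held 3.1% to 3.43%.

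On the autosomes 6.71% of the 10502 pairs in the arms fell and 3.67% of the 3246 pairs in the middle stretches. The arms held 85.6% of the autosomal pairs that fell and 76.4% of all autosomal pairs. The densest stretch of 1 Mb was on chromosome II from 3 to 4 Mb, where 64 of 207 pairs, or 30.9%, fell. Neighbouring pairs are not independent of each other and some share an H3K27ac peak, so these intervals understate the uncertainty of the shares.

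**Figure D3:**
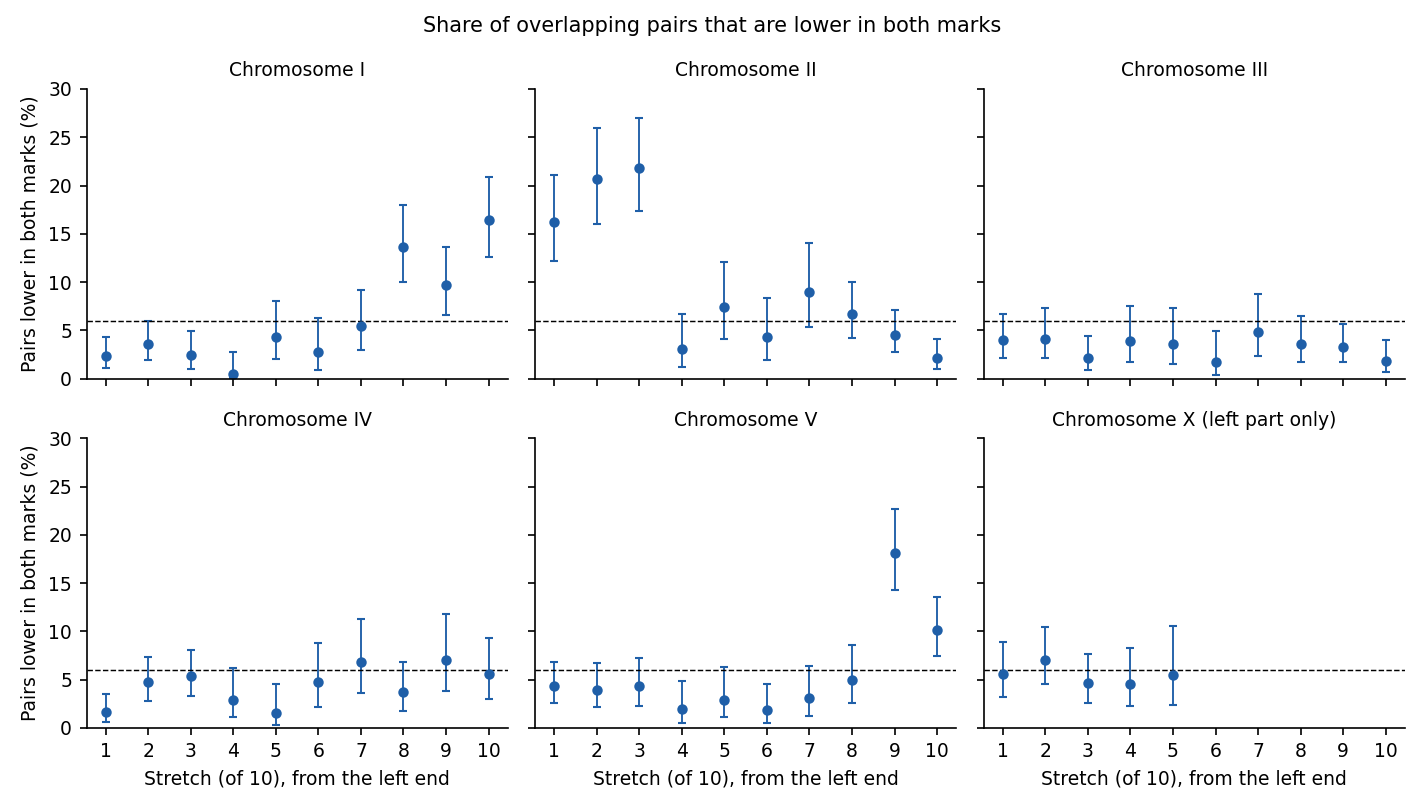
Percentage of overlapping pairs lower in both marks in each of 10 equal stretches of each chromosome, with exact 95% intervals and a dashed line at 5.96%, the share over all pairs. The first 3 stretches of chromosome II, the last 3 of I and the last 2 of V have intervals wholly above the line; chromosome X is covered only in its left part.

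Many of the pairs that fell stood in runs. When pairs no more than 20 kb apart were joined, 577 of the 895, or 64.5%, had a fallen neighbour and 318 stood alone. How many would have one from the spacing of all pairs was not computed. In addition, 33 H3K27ac peaks were each in more than 1 pair that fell, and such pairs are neighbours by construction. There were 43 runs of at least 4 pairs, with 261 pairs in all, and 15 of these runs were on chromosome II, 13 on I, 6 on V, 4 on X, 3 on IV and 2 on III. The stretches of these runs held 107 further pairs, and 101 of them, or 94.4%, had ratios below 1 in both marks, against 40.6% of all pairs. No pair in these stretches was higher in both marks. The stretches were drawn around pairs chosen for low ratios, and a further pair can share its H3K27ac peak with a pair that fell. These shares are therefore a description and not a separate result.

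Peaks without a partner of the other mark, which the rule did not use, gave a further view of the same stretches. Of 30 such H3K18ac peaks inside the runs 24 had a ratio of at most 1/1.5, or 80% (61.4 to 92.3), against 24.4% of all 2613 unpaired H3K18ac peaks. Of 48 such H3K27ac peaks all 48 did, against 52.3% of all 2415. These peaks come from the same libraries as the pairs, so they say how far a stretch moved together in these libraries and not whether it would in others.

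The longest run lay on the right arm of chromosome V (19230711 to 19313623), where 19 of 23 pairs fell and the median log2 ratio over the 23 pairs was -1.06 for H3K18ac and -1.0 for H3K27ac. Its nearest genes included the F-box genes fbxb-2, fbxb-62 and fbxb-64, several unnamed genes of the F21D9 and F55C9 series, and sqst-3. On chromosome II (3598573 to 3652346) 14 of 16 pairs fell around wago-11, an Argonaute-family gene listed as a pseudogene, and genes of the M151 series. Farther left on chromosome II (922035 to 991708) 13 of 14 pairs fell at the F-box genes fbxc-28, fbxc-35, fbxc-36, fbxc-32, fbxc-57, fbxc-7, fbxc-39 and fbxc-42 and the lectin genes clec-43 and clec-44, with median log2 ratios of -1.07 for H3K18ac and -1.43 for H3K27ac. F-box genes were also in the runs at fbxb-13 and fbxb-10, at fbxb-39, fbxb-45 and fbxb-40 beside math-34, and at fbxb-47 beside btb-6 and btb-7. These 3 runs lay in the left arm of chromosome II, and another, at fbxb-94 and fbxb-100, lay on chromosome I.

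Chromosome I held a run of 10 of 15 pairs (14206447 to 14248049) at best-10 and best-25, bestrophin chloride channel homologues, at eya-1, a homologue of eyes absent, and at clec-115. Another, with 9 of 13 pairs (11718351 to 11767350), was at the piRNA locus 21ur-13288, at unnamed genes of the F35E2 series and at ZK1151.4. Some runs belonged to 1 gene or its surroundings: 4 of 4 pairs fell at kal-1, a homologue of the human extracellular matrix protein anosmin, with median log2 ratios of -0.93 for H3K18ac and -1.16 for H3K27ac. The run with all of its 8 pairs fallen on chromosome V (17126736 to 17151550) covered repeated genes of the spliced leader RNA (sls) and ribosomal RNA genes named rrn-4, together with mir-257. The remaining runs had 4 to 8 pairs each.

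Grouped by family, F-box genes of families b and c, substrate receptors of ubiquitin ligases that have expanded in nematodes, had more of their pairs fall than not. Of 53 pairs nearest to an fbxb or fbxc gene 32 fell, or 60.4% (46.0 to 73.5), against 5.96% of all pairs. None was higher in both marks, against 439 of all 15026 pairs. The median log2 ratio over the 53 pairs was -0.81 for H3K18ac and -0.85 for H3K27ac. In the left arm of chromosome II 23 of 29 such pairs fell, and elsewhere 9 of 24. The lowest means were at fbxc-51, fbxc-39 and fbxb-104. At fbxc-39 on chromosome II (988224 to 989240) H3K18ac had 113 counts in cco-1 RNAi worms against 280 in empty vector worms, and H3K27ac had 111 counts in cco-1 RNAi worms against 443 in empty vector worms. These genes resemble each other in sequence, and how reads that match several copies were counted is not given in the sources used here.

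F-box genes of family a, the other large branch of these receptors, had 9 of 73 pairs that fell, or 12.3% (5.80 to 22.1, an interval that includes the 5.96% of all pairs), and 3 that were higher in both marks. Genes of the MATH and BTB families, adaptors of cullin ubiquitin ligases, had 10 of 35, or 28.6% (14.6 to 46.3). At bath-9 on chromosome II H3K27ac had 65 counts in cco-1 RNAi worms against 243 in empty vector worms, and at btb-6 it had 72 in cco-1 RNAi worms against 270 in empty vector worms. C-type lectins, secreted or membrane proteins with a sugar-binding fold, had 21 of 111, or 18.9% (12.1 to 27.5). The lowest lectin mean was at clec-266 on X, with ratios of 0.460 for H3K18ac and 0.314 for H3K27ac, followed by clec-253 and clec-121.

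Chemoreceptors, the G protein-coupled receptors of sensory neurons, had 38 of 332 pairs that fell, or 11.4% (8.23 to 15.4), against 5.96% of all pairs. The lowest were srh-171, sre-2 and srw-48. At a 2-fold limit 1 of 332 was left, or 0.301%, which is below the 0.732% of all pairs. These F-box, MATH, BTB, lectin and chemoreceptor families together were nearest to 110 of the 895 pairs, or 12.3% (10.2 to 14.6), against 4.02% of all pairs. In the left arm of chromosome II 122 of the 816 pairs outside these families fell, or 15.0%.

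**Figure D4:**
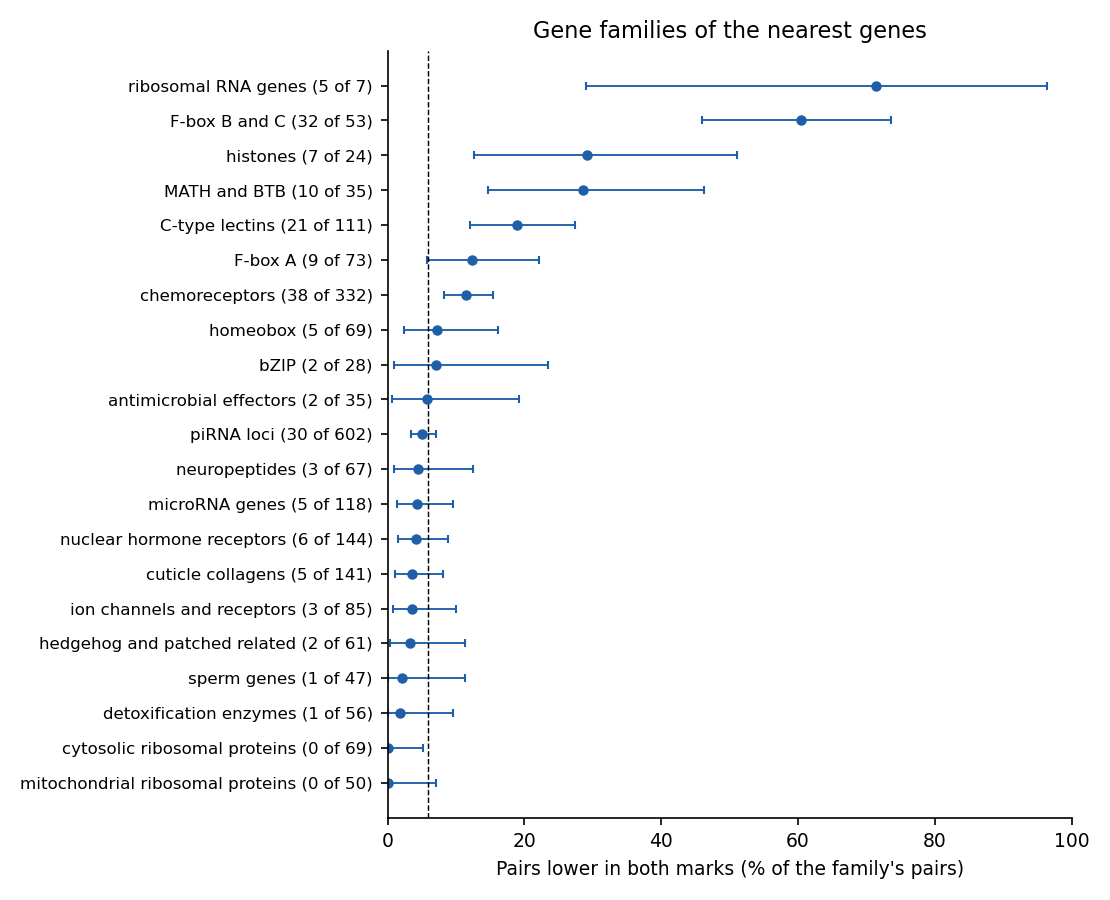
Percentage of each gene family's pairs that were lower in both marks, with exact 95% intervals, the numbers of pairs in parentheses and a dashed line at 5.96%, the share over all pairs. The fbxb and fbxc families stand at 60.4%, and both families of ribosomal protein genes at 0.

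Histone genes fell at places that lay over gene starts and, apart from his-7, were strong. The pairs were at his-32 and his-31, his-7, his-68 and his-67, his-2 and his-1, his-64 and his-63, his-40 and his-38, and his-6 and his-5, neighbouring core histone genes of the kind expressed when DNA is copied. They made up 7 of 24 histone pairs, or 29.2% (12.6 to 51.1), against 5.96% of all pairs. H3K27ac was the lower mark in all 7, with ratios of 0.305 to 0.470, against 0.488 to 0.646 for H3K18ac. At his-32 and his-31 on chromosome IV H3K18ac had 699 counts in cco-1 RNAi worms against 1328 in empty vector worms, and H3K27ac had 861 counts in cco-1 RNAi worms against 2555 in empty vector worms. Over all 24 histone pairs 13 were at most 1/1.5 in H3K27ac, against 18.4% of all pairs, and 7 in H3K18ac, against 10.8%. The median log2 ratio over the 24 was -0.73 for H3K27ac and -0.33 for H3K18ac. Histone genes are near-identical copies of each other, so counts at 1 cluster may include reads of another.

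Ribosomal RNA genes had 5 of 7 pairs that fell, or 71.4% (29.0 to 96.3), against 5.96% of all pairs. They were rrn-2.1 and 4 on chromosome V that rest on 2 H3K27ac peaks, at rrn-4.11 and at rrn-4.15. At rrn-4.11 H3K18ac had 372 counts in cco-1 RNAi worms against 708 in empty vector worms, and H3K27ac had 749 counts in cco-1 RNAi worms against 1536 in empty vector worms. The product of the spliced leader genes is joined to the start of many messenger RNAs. These genes had 3 of 10, or 30% (6.67 to 65.2), at sls-1.1 and sls-1.5, against 5.96% of all pairs. This family was named after seeing the data, so its count has no independent weight. Its pair at sls-1.5 is also counted among the ribosomal RNA pairs, through rrn-4.11. All of these are repeated genes, with the same limit on counting as at rrn-2.1. No pair of the cytosolic ribosomal protein genes fell (0 of 69, which allows up to 5.21%, below the 5.96% of all pairs). None of the mitochondrial ribosomal protein genes fell either. Their 0 of 50 allows up to 7.11% and so does not set them apart from all pairs.

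Genes of DNA replication and cell division were gathered into a list after such names had been noticed among the nearest genes, so its count has no independent weight. Of 100 pairs 11 fell, or 11% (5.62 to 18.8, an interval that includes the 5.96% of all pairs), at 10 genes. None was higher in both marks, against 439 of all 15026 pairs. At cdc-25.2, a phosphatase that activates cyclin-dependent kinases, 2 places fell, and the one nearer to the gene's start on chromosome V (1569768 to 1570164) had 307 H3K27ac counts in cco-1 RNAi worms against 1109 in empty vector worms. At cya-1, a cyclin A gene, H3K27ac had 316 counts in cco-1 RNAi worms against 922 in empty vector worms. cdl-1 encodes the protein that binds the stem-loop of histone messenger RNAs, and 2 of its places fell, with H3K27ac ratios of 0.463 and 0.532. The others were knl-1 of the kinetochore, psf-2 of the replicative helicase complex, cyd-1 for cyclin D, mcm-2 of the replicative helicase, pole-1 for a DNA polymerase and the neighbours tpxl-1 and icp-1 of the spindle.

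**Figure D5:**
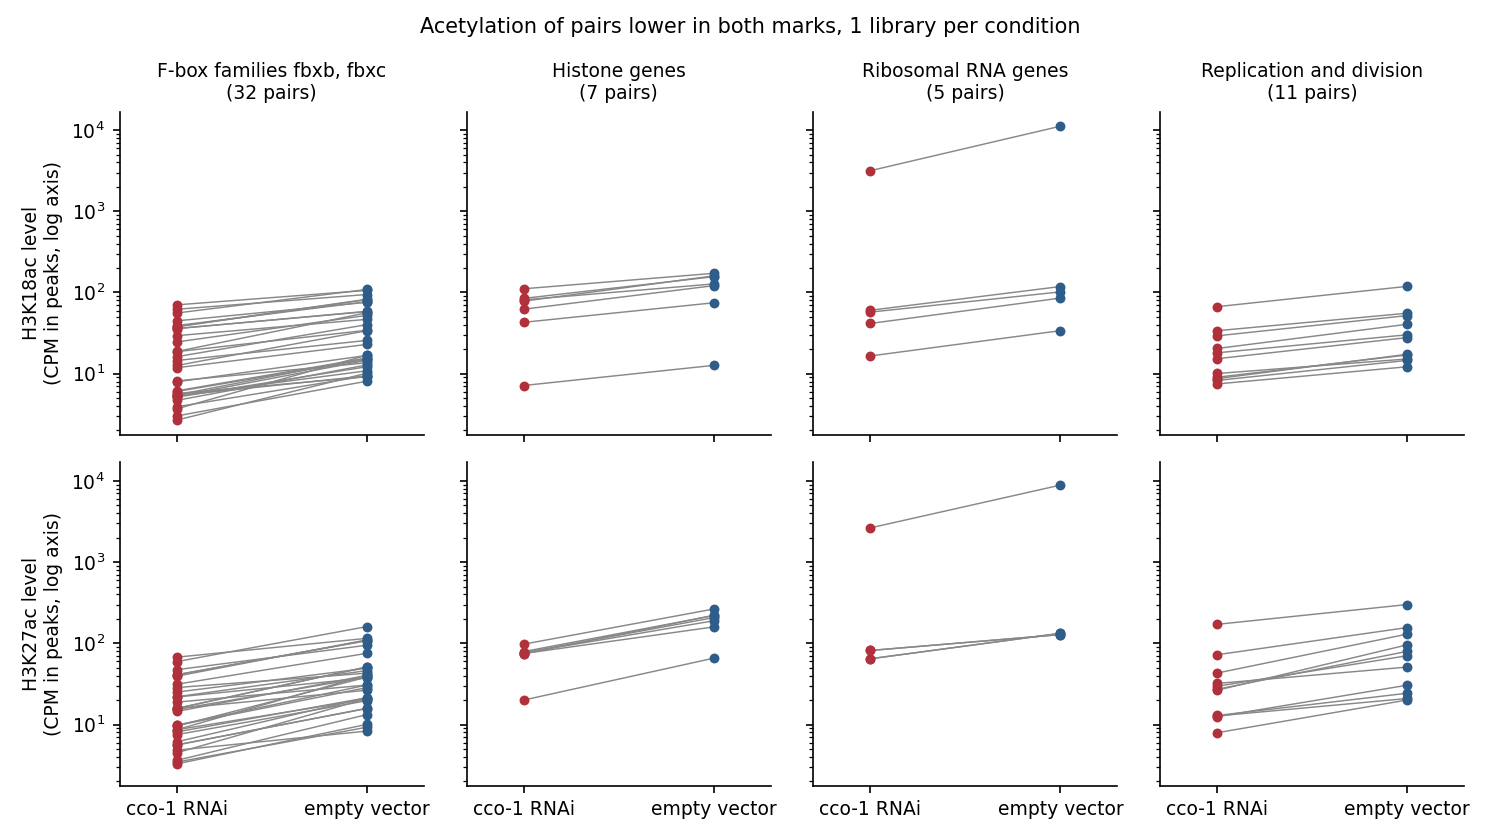
Level of H3K18ac (upper row) and H3K27ac (lower row) in CPM on a log axis, 1 line per pair that was lower in both marks, with the cco-1 RNAi library at left (red) and the empty vector library at right (blue), for fbxb and fbxc genes, histone genes, ribosomal RNA genes, and replication and division genes. All lines are lower in cco-1 RNAi by construction; the rrn-2.1 pair stands far above the rest, and the histone pairs keep to a narrow band of H3K27ac except his-7.

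Genes of moulting and the epidermis were gathered in the same way, after their names had been noticed, so the count has no independent weight either. Of their 44 pairs 9 fell, or 20.5% (9.80 to 35.3), at 8 genes, against 5.96% of all pairs. Higher in both marks was 1 of the 44, against 439 of all 15026 pairs. At die-1, a zinc finger factor of epidermal morphogenesis, 2 H3K18ac peaks fell under 1 H3K27ac peak, which had 244 counts in cco-1 RNAi worms against 724 in empty vector worms. At nhr-23, the nuclear receptor that drives moulting, a strong place inside the gene had H3K18ac at 97.4 CPM in cco-1 RNAi worms against 157 CPM in empty vector worms. At elt-1, the GATA factor of epidermal fate, H3K27ac had 323 counts in cco-1 RNAi worms against 548 in empty vector worms. let-805, lin-48, mlt-11, mltn-2 and mltn-4 were the other 5.

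Transcription factor families and other large families lay near or below the share of all pairs. Nuclear hormone receptors had 6 of 144 that fell, with nhr-122, nhr-218 and nhr-67 the lowest. Higher in both marks were 10 of the 144, against 439 of all 15026 pairs. Homeobox genes had 5 of 69, at ceh-45, ceh-32, ceh-49 and ceh-87. Among bZIP factors 2 of 28 fell and 7 were higher in both marks. One of the 2 was ces-2, a factor in programmed cell death, where H3K27ac had 894 counts in cco-1 RNAi worms against 2181 in empty vector worms. The other was zip-8. Cuticle collagens had 5 of 141, among them dpy-7 on X, and detoxification enzymes 1 of 56, gst-11. piRNA loci had 30 of 602, or 4.98%, with the lowest mean at 21ur-8842 and 21ur-973 on chromosome IV. Several of the 30 lay at 21ur-13288 on chromosome I.

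None of the 27 pairs at listed genes of the mitochondrial unfolded protein response fell. This allows a share of up to 12.8% and so does not set them apart from the 5.96% of all pairs. Higher in both marks were 10 of the 27, against 439 of all 15026 pairs. The named genes of this response, hsp-6, hsp-60, atfs-1 and dve-1, and the acetyltransferase gene cbp-1 had no pair that fell. The cco-1 gene itself had a peak with 27918 H3K18ac counts in cco-1 RNAi worms against 3111 in empty vector worms, and one with 32055 H3K27ac counts in cco-1 RNAi worms against 10146 in empty vector worms. These counts come from precipitated DNA and do not measure the knockdown. The cco-1 RNAi worms were fed bacteria carrying a cco-1 clone, and input libraries were not analysed. DNA of the clone and of the worm gene therefore cannot be told apart in these counts.

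Marker genes of cell types were read to see what else moved. Of 20 pairs at germline and oocyte markers 2 fell, at cbd-1 and at glh-2, a share with an interval of 1.23% to 31.7% that includes the 5.96% of all pairs. In H3K27ac alone 11 of the 20 were at most 1/1.5, against 18.4% of all pairs. The summed H3K27ac level of the germline and oocyte markers was 1293 CPM in cco-1 RNAi worms against 1937 CPM in empty vector worms, and their summed H3K18ac level was 769 CPM in cco-1 RNAi worms against 878 CPM in empty vector worms. Hypodermis markers had 2 of 7 that fell, elt-1 and dpy-7, and body wall muscle markers 1 of 14, unc-54, the main myosin heavy chain. None of the 9 sperm, 8 intestine, 15 neuron and 1 pharynx pairs fell. The summed H3K27ac level was 355 CPM in cco-1 RNAi worms against 482 CPM in empty vector worms for hypodermis, and 317 CPM in cco-1 RNAi worms against 411 CPM in empty vector worms for sperm markers. For body wall muscle it was 923 CPM in cco-1 RNAi worms against 1045 CPM in empty vector worms. For intestine it was higher, 791 CPM in cco-1 RNAi worms against 528 CPM in empty vector worms, and for neurons 619 CPM in cco-1 RNAi worms against 568 CPM in empty vector worms. No pair was assigned to 5 of 18 germline, 7 of 12 sperm, 6 of 11 intestine, 6 of 7 pharynx, 2 of 9 muscle, 3 of 13 neuron and 2 of 8 hypodermis markers. The summed levels of germline, hypodermis, sperm and muscle markers were thus lower in cco-1 RNAi worms. The 1 pharynx pair was lower too, with H3K27ac at 45.5 CPM in cco-1 RNAi worms against 61.9 CPM in empty vector worms. The median H3K27ac ratio over all pairs was itself 0.907, so a lower H3K27ac sum alone does not set a list apart. For H3K18ac that median was 0.997. In cco-1 RNAi against empty vector worms the summed H3K18ac level was 1211 against 1375 CPM for muscle and 484 against 613 CPM for hypodermis. It was 441 against 589 CPM for sperm markers, 785 against 728 CPM for intestine and 698 against 565 CPM for neurons. The part of cell composition or developmental stage in the falls was not tested.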

How the data were processed

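Each mark has 1 deposited table, whose lines hold peak coordinates, a nearest feature and counts in both conditions, per the file headers. The values were taken as counts because they are whole numbers. The submitters' processing notes name MACS2 2.1.2, Bowtie2 2.3.5 and SAMtools 1.4.1 beside the build WBcel235 (ce11), without roles. How the authors counted and filtered reads, and whether peaks were called on pooled libraries, is not given in the sources used here.

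Each peak was used once, with its first listed feature, and mitochondrial peaks were left out. Counts were scaled to CPM within nuclear peaks, without a pseudocount. Peaks overlapping by at least 1 bp were paired, and intervals are exact (Clopper-Pearson) at 95%. PCR reads are not independent molecules. Biotypes and chromosome lengths (the last gene end) come from a RefSeq table of the same build, which matched 99.1% of the pairs that fell and 97.7% of all pairs. The X peaks of the H3K18ac table cover only its left part, so X was left out of the comparison of arms and middle stretches. A pair belongs to a family if either nearest gene does.

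The members, lists and families were chosen with earlier results of these data known. Named pairs are the 12 with the lowest mean log2 ratio, the 12 strongest, the 3 lowest of each family with at least 3 pairs that fell, runs of at least 4 pairs, the 2 nearest to the limit on each side, and the stress genes; other members of lists were chosen for mention with their values known. The calculation was tested on simulated data. Python 3.11.15, pandas 2.3.3, numpy 2.4.6 and SciPy 1.17.1 were used.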

Additional observations from a re-analysis of the deposited data

How the results depend on the processing

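Counts of pairs that fell were 644 without scaling, 712 with an overlap of at least 0.5 of each peak and 841 with each peak in 1 pair only, all within 1.5 times of 895. They were 110 at a 2-fold limit, 587 with median scaling, 293 with both peaks at or above the median level, 375 with a pseudocount at the 5th percentile and 236 with the upper interval limit at most 1/1.5. Centring ratios within deciles of level, an alternative chosen after seeing the data, gave 563, of which 519 were among the 895.

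The share near a gene start was 80% at the 2-fold limit, 71.5% with the pseudocount and 72.9% with the interval limit, and the protein-coding share 70.6% at the 2-fold limit. The median H3K18ac level was 12.1 CPM (2-fold), 23 (median scaling), 30.4 (overlap), 61.2 (median level), 39.6 (pseudocount), 35.2 (interval limit) and 33.6 (centred). The median H3K27ac level was 22.2 CPM (2-fold), 23.7 (overlap), 51.8 (median level), 36.7 (pseudocount), 35.4 (interval limit) and 36.9 (centred). A minimum level, a pseudocount and an interval limit remove weak pairs by construction; the cause of the other shifts was not tested.

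The share of autosomal pairs that lay in the arms stayed between 84.2% and 87.4% under all 9 alternatives. In each of them the fbxb and fbxc, MATH and BTB, lectin, histone and pseudogene shares stood above the share of all pairs. So did those of the arms of II, I and V, and the chemoreceptor share did except at the 2-fold limit. At that limit this rested on 1 of 24 histone, 2 of 35 MATH and BTB and 3 of 111 lectin pairs. With the upper interval limit at most 1/1.5 the chemoreceptor share was 6 of 332, or 1.81%, close to the 1.57% of all pairs. Each alternative except centring kept only pairs from the 895, so the alternatives are not independent of the main result. With 1 library per group no library could be left out, and no paired analysis was possible because each group has 1 library. At the smallest counts, counting error alone makes ratios imprecise.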

Other observations

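Of 118 pairs nearest to microRNA genes 5 fell, or 4.24% (1.39 to 9.61), near the 5.96% of all pairs: 2 at mir-257, 2 at mir-266 and 1 at mir-4930. At mir-266 on chromosome X (3751342 to 3753098) H3K18ac had 1171 counts in cco-1 RNAi worms against 1961 in empty vector worms, and H3K27ac had 1154 counts in cco-1 RNAi worms against 1941 in empty vector worms. The ratios were 0.553 (0.514 to 0.595) for H3K18ac and 0.593 (0.550 to 0.638) for H3K27ac.

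Peptide and channel genes fell at shares whose intervals include the 5.96% of all pairs. Neuropeptide and insulin-like genes had 3 of 67, or 4.48% (0.933 to 12.5), at nlp-32, ins-30 and ins-26, and the insulin-like genes ins-30 and ins-26 stood in 1 run on the right arm of chromosome I. Ion channel and receptor genes had 3 of 85, or 3.53% (0.734 to 9.97), with 2 pairs at the potassium channel gene twk-36 and 1 at the acetylcholine receptor gene acr-10. Hedgehog-related genes had 2 of 61, or 3.28% (0.400 to 11.3), grd-11 and wrt-9.

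Genes known only by a sequence name were nearest to the H3K18ac peak in 63.0% (59.8 to 66.2) of the pairs that fell and in 56.6% of all pairs.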
